A study of Mus musculus with 9 samples.

Results

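Strong isolated MEF-only sites are the places where EWS/ATF1 gave a high peak in sarcoma-iPSC MEFs that lay apart from other MEF peaks. These sites had no listed peak nearby in the sarcoma cell line G1297. They were chosen by 3 values from the peak lists: a MEF peak score of at least 500, a distance of more than 12.5 kb to every other MEF peak, and a distance of more than 5 kb to every G1297 peak, both measured from edge to edge. Of the 27130 MEF peaks, 2492 met all 3 conditions (9.19%). Taken singly, the score condition was met by 9719 MEF peaks (35.8%), the isolation condition by 11859 (43.7%) and the distance from G1297 by 20409 (75.2%). These values selected the sites, so score, isolation and distance from G1297 are given below as descriptions, and nothing was tested with them.

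The study asked where EWS/ATF1 binds in cells that differ in type but share some genetic abnormalities linked to the sarcoma. It used ChIP-Seq with an antibody against the hemagglutinin (HA) tag of the fusion protein. G1297 is a line of mouse clear cell sarcoma that carries EWS/ATF1 under the control of doxycycline (Dox), and its 2 ChIP libraries were made from cells given Dox at 0.2 µg/ml for 12 h. The MEFs were grown from chimeric embryos made with iPSC clone #3, which had been reprogrammed from the sarcoma cells; cells derived from the iPSCs were selected with puromycin, and the single ChIP library was made after 12 h of Dox at the same dose. Each cell type had 1 peak list, with 8090 peaks in G1297, and the sources used here do not say whether 1 or both G1297 libraries entered it. All values of the sites therefore rest on 1 clone and 1 MEF ChIP library, without a spread between replicates.

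EWS/ATF1 joins the N-terminal part of EWS to the DNA-binding basic leucine zipper domain of ATF1, a factor of the CREB family that recognises the cyclic AMP response element (CRE). Many sites bound by transcription factors are enhancers, stretches of DNA that raise the activity of a gene at a distance, and which of them are accessible differs between cell types such as fibroblasts and tumor cells. When strong enhancer domains called super-enhancers are mapped, enhancers that lie close together are often joined, and 12.5 kb is the usual joining limit. Joining alone does not make a domain a super-enhancer. That limit would not join an isolated site to another MEF peak of EWS/ATF1. Enhancers were not mapped here, so whether another enhancer lies closer is unknown.

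The score of a peak is 10 times the negative log10 of its P value in the peak caller MACS, so a score of 500 is a P value of 1e-50 and the lists start near 90. It grows with the number of reads as well as with enrichment, and it ranks peaks within a list rather than measuring occupancy. Scores of the sites ranged from 500.1 to 3207 with a median of 914, and the middle 50% lay between 648 and 1462. The median over all MEF peaks was 315. Scores from 500 to 750 made up 36.9% of the sites (920). At the other end, 151 sites (6.06%) had a score of 3100 or more, and 138 of these had exactly 3100, a P value of 1e-310 at which the caller gives many peaks the same score. Together the sites covered 3.49 Mb, or 12.0% of the 29.2 Mb under MEF peaks.

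All positions are in build mm9. Only 13 sites had a score above 3100, and the score does not show that these were bound more strongly than the 138 tied at 3100. The 10 highest were 1508 to 2017 bp wide with a median of 1621 bp, narrower than the median of 1960 bp over all sites at 3100 or more. The site with the highest score, 3207, was chr17:64490265-64491943, a peak of 1679 bp that lay 13.2 kb from the next MEF peak and 10.1 kb from the nearest G1297 peak. These neighbours, both on the same side, had scores of 139 in the MEF list and 134 in the G1297 list. On the other side, the centre of the first MEF peak lay 41.8 kb away, with a score of 1331. The second, chr13:35450884-35452391 with a score of 3188, lay 12.6 kb from a MEF peak and 35.1 kb from a G1297 peak. It stood among 30 other MEF peaks within 500 kb, the most around any of the 10 highest sites, and passed the isolation condition narrowly.

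The setting of the 10 highest sites varied widely. The third, chr1:13649708-13651359 with a score of 3173, lay 19.5 kb from a MEF peak and 185 kb from a G1297 peak. At chr4:140512771-140514678, with a score of 3169, these distances were 53.3 kb and 102 kb. The fifth site, chr1:196205492-196207122 with a score of 3160, was the most secluded, with the nearest MEF peak 289 kb and the nearest G1297 peak 860.5 kb away. A comparable site was chr1:66050136-66051661, whose score was 3145 and whose nearest peaks lay 263 kb away in the MEF list and 275 kb away in the G1297 list. Both were surrounded by at most 5 other MEF peaks within 500 kb.

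The remaining sites of the 10 had scores between 3139 and 3153. They were chr6:117380569-117382585, chr9:64849354-64850946, chr9:94569903-94571513 and chr5:139519637-139521200, at 14.9, 156, 29.2 and 35.5 kb from the next MEF peak and at 267, 299, 180 and 86.4 kb from the nearest G1297 peak. Of the 10 sites, 7 had no G1297 peak within 100 kb and 4 had none within 250 kb. Over all sites, 63.3% had no G1297 peak within 100 kb. The nearest G1297 peak of every one of the 10 had a score under 500, from 95.8 to 368. Scores under 500 were common in the G1297 list, where 2498 of 8090 peaks had at least 500. In the 250 kb on either side of these sites lay 78 other MEF peaks and 15 G1297 peaks in total.

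**Figure D1:**
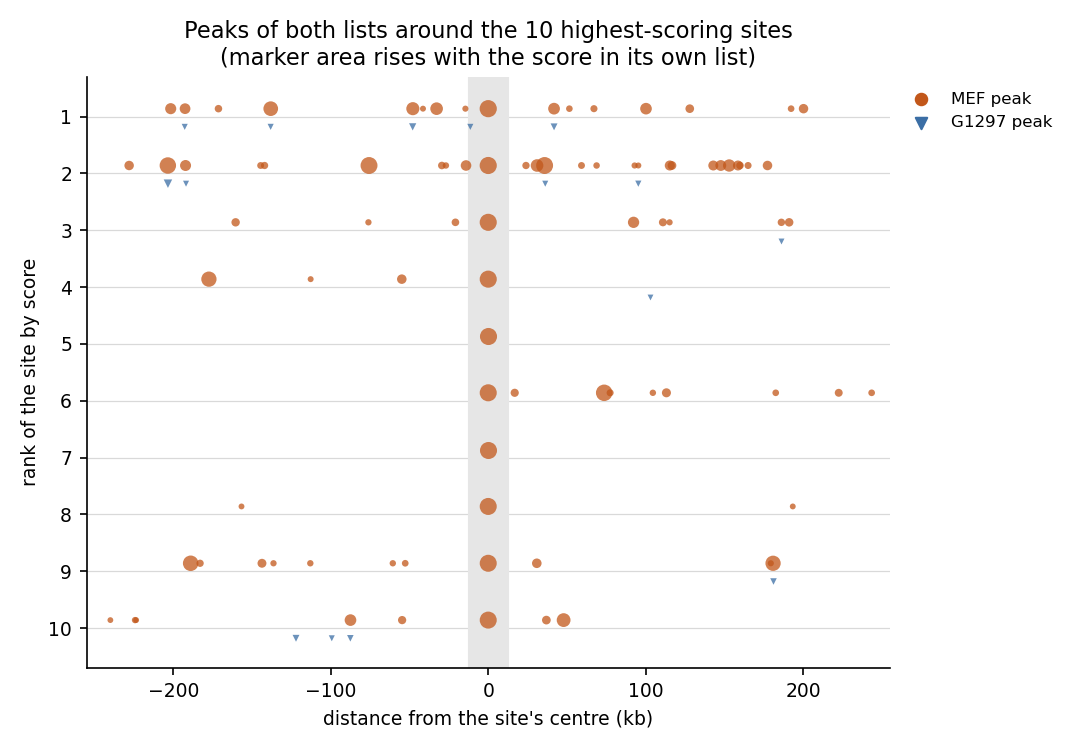
Peaks of the MEF list (circles) and of the G1297 list (triangles) within 250 kb of the centre of each of the 10 highest-scoring sites, with distance in kb on the horizontal axis, the rank of the site on the vertical axis and marker area rising with the score. The grey band spans 12.5 kb on either side of the centre; sites 5 and 7 have no other peak of either list in view, while site 2 has 25 other MEF peaks and 4 G1297 peaks.

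Sites near each limit show how narrowly some were selected. For the score, chr19:43060160-43061430 was just inside at 500.07 and chr2:65309037-65310683 just outside at 499.78. Next to these, chr4:64739004-64740020 was inside at 500.21 and chr3:127430628-127431676 outside at 499.73. For isolation, chr1:97563156-97565238 was inside with 12548 bp to the next MEF peak and chr17:83722628-83724104 with 12549 bp, while chr3:56737108-56738322 and chr9:84350875-84352505 were outside, both with 12493 bp. For the distance from G1297, chr8:105400551-105401595 was inside at 5044 bp and chr12:114113252-114114583 at 5151 bp, and chr10:23055134-23056411 was outside at 4901 bp and chr9:75494096-75495050 at 4896 bp. Near the limits lay 236 sites with a score under 550, 245 sites with a gap of at most 15 kb, and 28 sites at 5 to 10 kb from a G1297 peak.

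Few strong isolated peaks lay near the limit of 5 kb from G1297. Among the 3602 MEF peaks that were strong (a score of at least 500) and isolated, 1086 (30.2%) overlapped a G1297 peak, 24 (0.67%) lay within 5 kb without overlap, and 28 (0.78%) lay at 5 to 10 kb. Thus 95.4% of the 1138 strong isolated peaks that had a G1297 peak within 10 kb overlapped it. In the 6117 strong peaks that were grouped, meaning that another MEF peak lay within 12.5 kb, the overlap was similar at 32.9%, but 7.81% lay within 5 kb without overlap and 5.18% at 5 to 10 kb. Part of this contrast is built into the isolation condition. Of all G1297 peaks, 62.8% overlapped a MEF peak, and a G1297 peak that overlaps another MEF peak cannot lie well within 12.5 kb of an isolated one.

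**Figure D2:**
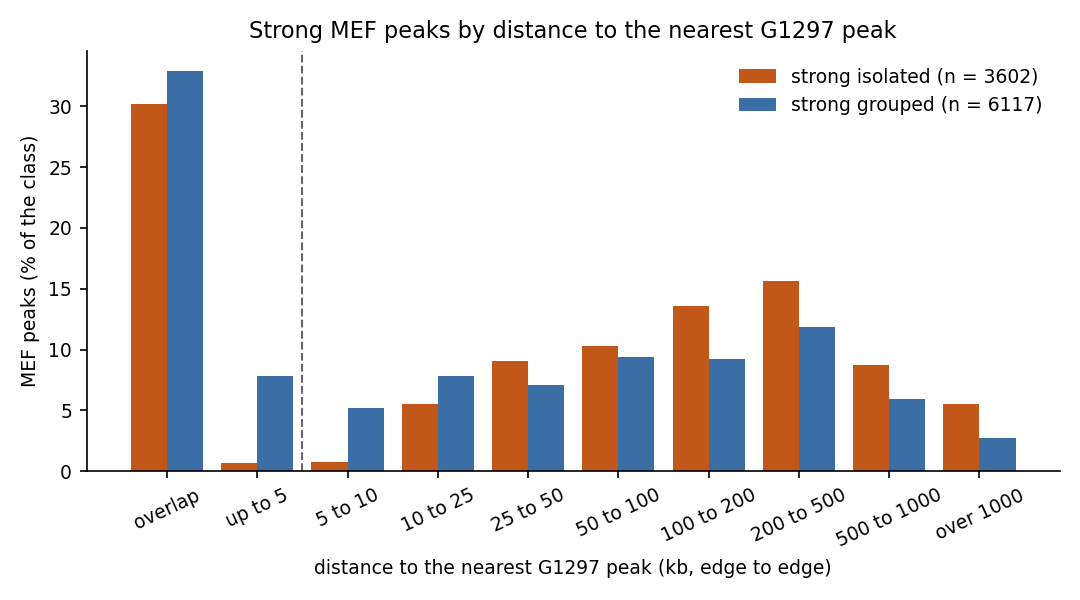
Share of strong isolated (n = 3602) and strong grouped (n = 6117) MEF peaks, in percent of each class, by distance in kb to the nearest G1297 peak. The dashed line marks the limit of 5 kb, and the strong isolated MEF-only sites are the orange bars to its right; the bins grow wider with distance, so bar heights do not compare as densities, and the orange bars at up to 5 kb (0.67%) and 5 to 10 kb (0.78%) stand beside blue bars of 7.81% and 5.18%.

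Most sites were far from G1297 binding. The median distance to the nearest G1297 peak was 163 kb, with quartiles of 56.3 and 406 kb, over the 2491 sites that had a G1297 peak on the same chromosome or contig. When only G1297 peaks with a score of at least 200 counted, the median was 246 kb. A G1297 peak lay within 25 kb of 228 sites (9.15%), within 50 kb of 554 (22.2%) and within 100 kb of 925 (37.1%). At 513 sites (20.6%) the nearest lay more than 500 kb away, at 199 sites (7.99%) more than 1 Mb and at 9 sites more than 5 Mb. Weak isolated MEF-only peaks, which met the same distance conditions with a score under 500, were placed alike, with a median of 165 kb and 62.5% beyond 100 kb against 62.9% of the sites. Strong grouped MEF-only peaks were nearer to G1297 peaks, with a median of 101 kb and 50.2% beyond 100 kb. Part of this contrast is again built into the isolation condition, which keeps G1297 peaks that overlap another MEF peak away from the sites.

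The G1297 peaks nearest to the sites had a median score of 232, against 270 over the whole G1297 list. They were 1634 different peaks. At 66.8% of the sites the nearest G1297 peak overlapped a MEF peak elsewhere, near the 62.8% of all G1297 peaks that did. The G1297 peak was the closer neighbour at 246 sites (9.87%), where it lay nearer than any other MEF peak. The sites farthest from G1297 were chrX:152093399-152094424 at 8.6 Mb with a score of 546, chrX:58381994-58383859 at 7.23 Mb with a score of 1015, and chr3:20173555-20174686 at 7.1 Mb with a score of 570.1.

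Within the MEF list the median distance to the nearest other peak was 33.3 kb, with quartiles of 19.9 and 61.9 kb. Beyond 50 kb on both sides stood 794 sites (31.9%), beyond 100 kb 334 sites (13.4%) and beyond 500 kb 15 sites. Such distances were not particular to the sites. Among strong isolated peaks with G1297, 30.3% stood beyond 50 kb and 13.3% beyond 100 kb. In weak isolated MEF-only peaks these shares were 40.1% and 18.6%. The farther of a site's neighbours on the 2 sides lay at a median of 107 kb, and the stretch free of other MEF peaks around a site had a median of 148 kb. These distances count MEF peaks of any score, and the median was 73.9 kb when only MEF peaks with a score of at least 500 counted. The most isolated were chrX:58381994-58383859 at 2.0 Mb from any other MEF peak, chr12:61351295-61352402 at 1.03 Mb with a score of 648, and chr6:77194191-77195384 at 1.01 Mb with a score of 599. The last of these was also remote from G1297 binding, at 4.23 Mb.

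The next MEF peak was weak about as often as MEF peaks over the whole list. Its score was under 500 at 1626 sites (65.3%), close to the 64.2% of all MEF peaks under that score, and its median score was 303. At 2103 sites (84.4%) the next MEF peak was itself MEF-only, compared with 75.2% of the list and with 9671 of the 11859 isolated MEF peaks. Another site was the nearest MEF neighbour of 423 sites (17.0%), while sites were 9.19% of the MEF list. What the isolation condition contributes to either share, 84.4% or 17.0%, was not tested. Counted in order along the chromosomes, the sites formed 2102 runs without another MEF peak between them, of which 1773 were a single site and 50 held 3 or more.

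Within 100 kb of its centre a site had a median of 3 other MEF peaks and 0 G1297 peaks, and 1578 sites (63.3%) had no G1297 peak in that reach. Strong grouped MEF-only peaks had a median of 5 other MEF peaks within 100 kb, and 50.5% of them had no G1297 peak. Within 500 kb the medians were 15 MEF and 3 G1297 peaks for the sites, against 18 and 4 for the strong grouped MEF-only peaks. Grouped peaks have another MEF peak within 12.5 kb by definition, so part of the contrast in MEF peaks is set by the rule. Part of the contrast in G1297 peaks is also built into the isolation condition, as described above. Strong isolated peaks with G1297 had medians of 3 other MEF peaks within 100 kb and 16 within 500 kb. The sites were thus not confined to regions empty of binding, and at 500 kb only 15 of them had no other MEF peak.

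MEF peaks that were strong and isolated had a G1297 peak within 5 kb more often the higher their score. MEF-only peaks made up 76.9% of the isolated peaks with a score from 500 to 750 (920 of 1196), 73.1% from 1000 to 1500 (514 of 703) and 44.9% at 3100 or more (151 of 336). Below the limit of 500 the share was higher still, 89.1% from 90 to 200 and 84.5% from 200 to 500. Grouped peaks followed the same course, from 79.6% in the lowest band to 35.3% in the highest. Their lower level depends in part on the distance of 5 kb, and how many peaks lie that near without overlap is, as described above, partly built into the isolation condition. Over all scores from 500, MEF-only peaks were 69.2% of strong isolated and 59.3% of strong grouped peaks, but peaks without an overlapping G1297 peak were 69.9% and 67.1%. Counted by overlap, the isolated share was slightly lower than the grouped one in the 4 bands under 1000, such as 77.7% against 80.4% from 500 to 750. It was higher in the 4 bands from 1000, and at 3100 or more it was 45.2% against 37.8%. Likewise, 40.7% of strong MEF-only peaks were isolated against 30.8% of strong peaks with a G1297 peak within 5 kb, and by overlap these shares were 38.0% and 35.0%.

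**Figure D3:**
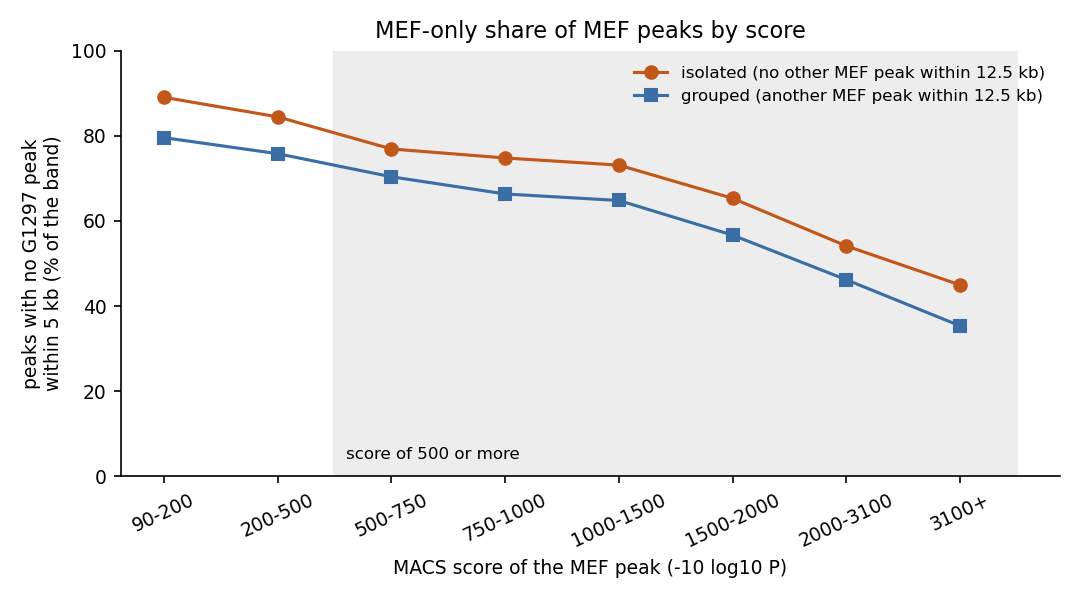
Share of MEF peaks with no G1297 peak within 5 kb, in percent of each score band, for isolated (circles) and grouped (squares) peaks; the shaded bands are those from which the strong isolated MEF-only sites were selected. The share falls from 89.1% to 44.9% in isolated and from 79.6% to 35.3% in grouped peaks; counted by overlap, the isolated share is the higher only in the 4 bands from a score of 1000.

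The score distribution of the sites was lower than that of their shared counterparts. Strong isolated peaks with a G1297 peak within 5 kb (1110) had a median score of 1306 and 16.7% of them had 3100 or more, against 914 and 6.06% in the sites. Strong grouped MEF-only peaks (3625) had a median of 1006 and 7.81% at 3100 or more, close to the sites. The highest values were in the strong grouped peaks with G1297, which by coincidence also number 2492, with a median of 1494 and 20.8%.

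The width of a peak was not part of the rule, but it comes from the same peak call as the score and rose with it. Sites were 746 to 4298 bp wide, with a median of 1291 bp and quartiles of 1137 and 1562 bp. The median width was 1149 bp at scores from 500 to 750 and 1960 bp at 3100 or more, and over the 2492 sites the rank correlation of score and width was 0.58. The points of this and the following correlations are peaks of 1 library and not replicates. Strong isolated peaks with G1297 had a median of 1362 bp, but within score bands they were the slightly narrower class, by 1.5 to 118 bp in 6 of 6 bands. Their scores were also higher, and whether this accounts for their wider overall median was not tested.

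The widest sites all had a score of 3100. They were chr12:117486619-117490916 with 4298 bp, chr6:146270346-146274220 with 3875 bp and chr4:107755148-107758915 with 3768 bp. The last lay 23.5 kb from a MEF peak with a score of 2823 and 23.7 kb from a G1297 peak with a score of 1417. The nearest MEF peaks of the widest and second widest sites had scores of 265 and 238. Their nearest G1297 peaks had scores of 95.6 and 96.3. The narrowest sites were chr1:137122864-137123609 with 746 bp, chr5:147732559-147733308 with 750 bp and chr6:134715704-134716471 with 768 bp, at scores of 538, 668 and 549.9.

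**Figure D4:**
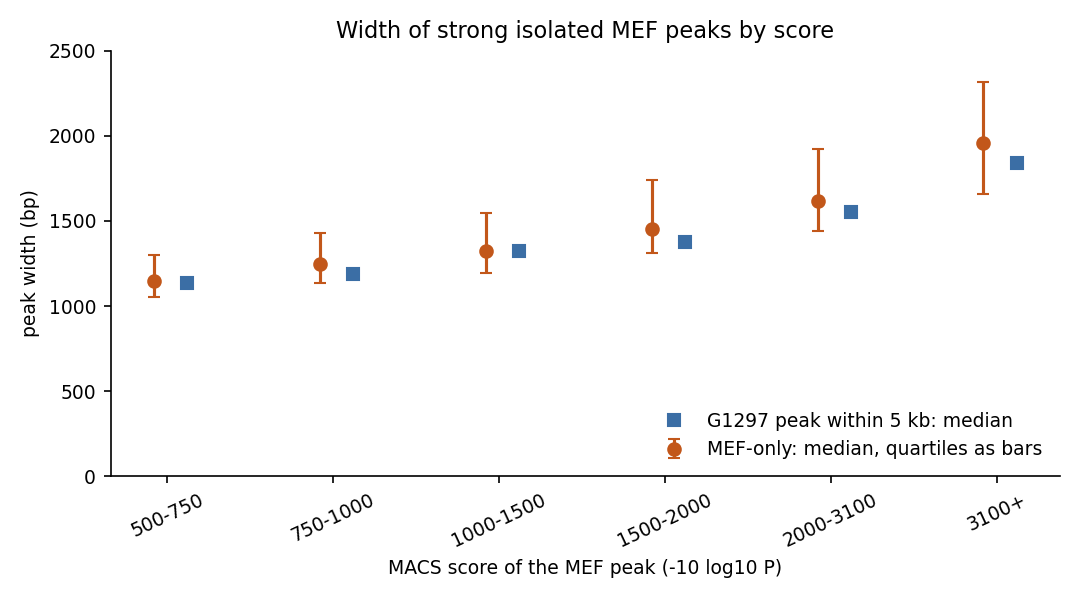
Median peak width in bp by score band for the strong isolated MEF-only sites (circles, with bars from the lower to the upper quartile) and median width of strong isolated peaks with a G1297 peak within 5 kb (squares). Both rise with the score, from 1149 to 1960 bp and from 1138 to 1842 bp.

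Score and both distances selected the sites, so how they relate within the sites is given as a description only. The rank correlation of score was -0.04 with the distance to the next MEF peak (n = 2492) and -0.01 with the distance to the nearest G1297 peak (n = 2491). In 4 equal groups of 623 sites by distance to the next MEF peak, the median score was 932, 931, 948 and 855 from the nearest to the farthest group, and the number of sites at 3100 or more was 46, 38, 36 and 31. The rank correlation of the distances to the peaks of the 2 lists was 0.28. In the same 4 groups the median distance to G1297 rose from 102 to 115, 156 and 267 kb.

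Sites were present on all 19 autosomes and on X. The autosomes held 2459 sites, at a median of 10.7 per 10 Mb between the first and the last MEF peak, from 6.7 on chromosome 7 to 12.7 on chromosomes 11 and 13. As a share of the strong MEF peaks of a chromosome, which was 25.6% for the whole list, they ranged from 20.2% on chromosome 17 (72 of 357) to 32.1% on chromosome 11 (150 of 467). Chromosome X had few peaks of either list, 15.6 MEF and 2.3 G1297 peaks per 10 Mb, and 27 sites. These were 42.2% of its 64 strong MEF peaks, and 5 of the 27 lay in a single run of sites of similar width, without which the share was 37.3% (22 of 59). Where peaks are sparse, both distance conditions are easier to meet, and what this adds to the share on X was not tested. A further 6 sites were on 4 random or unplaced contigs, where distances to neighbours are cut short, and Y had 2 MEF peaks and no site.

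**Figure D5:**
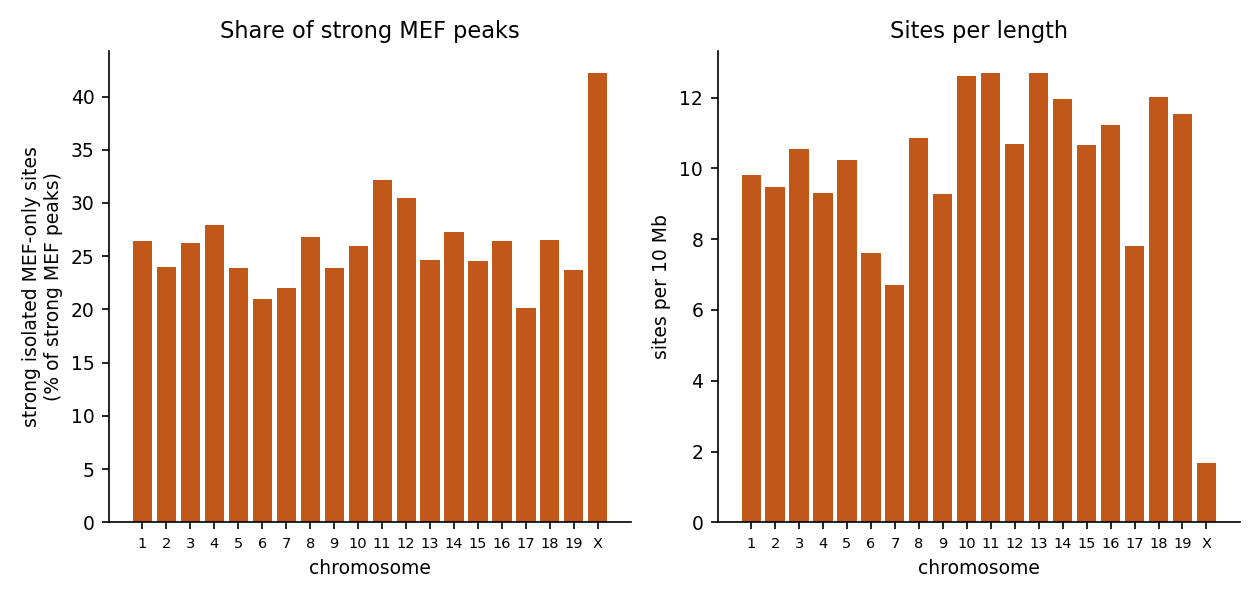
Strong isolated MEF-only sites on each chromosome, as percent of the strong MEF peaks of that chromosome (left) and per 10 Mb (right). Chromosome X has the highest share, 42.2%, and the lowest number per length, 1.68 per 10 Mb.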

How the data were processed

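ChIP-Seq peak lists for HA-tagged EWS/ATF1 were used, 1 for G1297 and 1 for sarcoma-iPSC MEFs at 12 h of Dox. Per the labels, reads were trimmed with cutadapt, aligned to mm9 with Bowtie2 2.2.0 and peaks were called with MACS 1.4.2. The deposited score of each peak is 10 times the negative log10 of the P value that the authors' peak caller gave it, with a P value threshold of 1e-09, which is a score of 90. The build was checked by chromosome lengths: 15 of the sites and 147 of all MEF peaks reach beyond the last base of their chromosome in GRCm38, the genome at hand. Coordinates were not converted, so genes, transcription starts, motifs and sequences at the sites were not analysed here.

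Distances were computed edge to edge in Python 3.11.15 (numpy 2.4.6, pandas 2.3.3). They were tested on simulated lists, and bedtools 2.31.1 returned equal distances for all 27130 MEF peaks. Positions are counted from 1. Counts of peaks within 100, 250 and 500 kb use peak centres. To judge whether a median or share moved under an alternative, 95% intervals over peaks from scipy 1.17.1 served as a yardstick only, since peaks of 1 library are not replicates. Plots were drawn with matplotlib 3.10.9. MEF peaks were split into 8 classes by score (at least 500 or less), isolation and distance from G1297. No test was run, because the rule used these values and peaks are not replicates.

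The members and lists were chosen with earlier results of these data known. Named by rule are the 10 highest-scoring sites (ties by width, then position), the 3 farthest from MEF peaks, the 3 farthest from G1297 peaks, the 3 widest, the 3 narrowest, and 2 peaks on either side of each limit. Alternatives were other limits for each condition, distances between centres, fewer peaks in either list, and chromosomes or contigs left out. Read depth is unknown, since the lists hold no counts, so numbers of peaks in the 2 lists are not comparable as amounts of binding. The KRAB libraries taken at 48 h, expression, H3K27ac and copy number were not analysed here.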

Additional observations from a re-analysis of the deposited data

How the results depend on the processing

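The number of sites followed the limits of the rule, as their construction requires. It was 2492 as chosen, 4083 with scores from 300 and 1106 with scores from 1000, 1578 with more than 25 kb to every other MEF peak, and 4197 when only MEF peaks with a score of at least 500 counted as neighbours. It stayed within 1.5 times under 7 other settings, between 1938 (more than 50 kb from G1297 peaks) and 3697 (more than 5 kb from MEF peaks). When the MEF list was shortened to its top 8090 peaks by score, the number in the G1297 list, its lowest score was 629.1 and 3459 peaks passed, of which 1933 were sites of the main rule and 1526 were not, while 559 sites were lost; this setting and those without contigs and without the run of sites on X were chosen after seeing the data. The median width of 1291 bp was 1275 bp without scores of 3100 or more and 1485 bp with scores from 1000. The median distance to G1297 of 163 kb was 246 kb when only G1297 peaks with a score of at least 200 counted, and the median distance to other MEF peaks of 33.3 kb was 73.9 kb when only those from 500 counted. The share of sites among strong MEF peaks, 25.6%, was 25.5% without X and Y. Counted by overlap in place of 5 kb, also chosen after seeing the data, MEF-only peaks were 69.9% in place of 69.2% of strong isolated and 67.1% in place of 59.3% of strong grouped peaks. Of 19 settings compared, 10 stayed and 9 moved. Another 4 planned settings, on CRE motifs and transcription starts, were not run, since they need an mm9 genome. No paired analysis was possible because the peaks come as 1 list for each cell type, with no replicate values. Depth is unknown, which limits what absence means: a site is MEF-only where the G1297 list has no peak at its threshold, and weaker binding there would not be listed.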

Other observations

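The longest runs of sites without another MEF peak between them held 5 sites each, and there were 2 such runs, both singled out after their values were seen. On chromosome X, the run from chrX:34780689-34781869 to chrX:34981618-34982825 had sites of similar width. The starts of successive sites lay 41.6, 41.7, 76.7 and 40.9 kb apart, so 3 of the 4 steps were near 41 kb, the widths ranged from 1062 to 1219 bp, and the scores were 948, 975, 515, 931 and 1069. No G1297 peak lay within 176 kb of any of them. These 5 sites are 5 of the 27 on X, and without them the share of sites among strong MEF peaks on X was 37.3% (22 of 59) in place of 42.2%. Whether these stretches are copies of a single sequence, to which the same reads could align, was not tested, because no mm9 sequence was used here.

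On chromosome 11 the run from chr11:31959304-31961451 to chr11:32162646-32163829 had uneven spacing, with starts 15.6, 25.9, 77.0 and 84.9 kb apart and scores of 2885, 523, 1665, 3062 and 672. It opens the 1 Mb window with the most sites in the genome, which held 9 sites among 19 MEF peaks and 3 G1297 peaks over 789 kb.

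The same rule with the cell types exchanged gave far fewer sites. In the G1297 list, 234 of 2498 peaks with a score of at least 500 (9.37%) were isolated and far from MEF peaks, compared with 25.6% in the MEF list. A larger share of peaks was isolated in the G1297 list than in the MEF list, 58.8% against 43.7%. However, 17.3% of strong G1297 peaks lay more than 5 kb from the other list, against 62.9% of strong MEF peaks. The G1297 sites had a median score of 878 and lay a median of 36.3 kb from the nearest MEF peak. The lists differ in length and their depths are unknown, so these shares describe the lists only.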
